A study of Homo sapiens with 4 samples.

Results

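Integrins, laminins and collagens were examined here as mRNAs recovered by RNA immunoprecipitation sequencing (RIP-seq), in which a protein is pulled out of a cell lysate by its antibody and the RNA attached to it is sequenced. The genes were taken by name, as every gene name in the deposited tables that starts with an integrin alpha or beta, a laminin alpha, beta or gamma, or a numbered collagen symbol. The pattern matched 42 of 13300 gene names, with 113 of 34975 listed transcripts. Of the 42 names, 37 are chains of these proteins (14 integrin, 9 laminin and 14 collagen chains), and 5 are not chains. The material was HCCLM3, an established human hepatocellular carcinoma cell line, with 2 libraries precipitated by an antibody against KIAA1429 (KIAA1429 RIP) and 2 precipitated by normal IgG (IgG RIP), the background control. All 4 libraries came from the same line with no other treatment named in the labels, and the labels do not say whether replicates were separate cultures, so p-values may reflect technical spread alone. The study used this comparison to find mRNAs bound by KIAA1429, a large subunit of the complex that writes N6-methyladenosine (m6A) into RNA. HCCLM3 was labelled only by its name, and its lysate represents 1 line and no other hepatoma cell.

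Integrins are cell surface receptors made of 1 alpha and 1 beta chain, which bind the matrix outside and the actin-linked adhesion complex inside. Laminins are secreted trimers of 1 alpha, 1 beta and 1 gamma chain and form, with type IV collagen, the basement membrane on which epithelial cells rest. Collagens are trimers wound from chains rich in glycine, and the fibrillar types give tissue its tensile strength. In liver tumors these proteins are known for their part in adhesion, stroma and invasion. The METTL3 and METTL14 methyltransferase, to which KIAA1429 belongs, marks adenosines in motifs with GGAC at the core, mostly near the stop codon.

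The deposited unit is FPKM, fragment number scaled by transcript length and by the mapped fragments of the library, which can be compared between genes. Values of all listed transcripts were summed per gene name. FPKM summed to between 295573 and 340300 in a library. Read counts were not used here, the depth is therefore unknown, and the error comes only from the 2 replicates of each group. A value of 0 is described as listed at 0, since the files do not tell an absent RNA from a failed estimate. All 8 hepatocyte lineage markers were listed, with summed levels of 331 to 371 FPKM, and 4 of 5 epithelial markers, with 1289.5 to 1712 FPKM. CDH1 was not listed, EPCAM stayed between 1.41 and 3.21 FPKM and HNF4A between 0.305 and 1.11 FPKM. Of the fibroblast and stellate markers, 3 of 5 were listed, with summed levels of 19.2 to 41.7 FPKM, led by ACTA2. PDGFRB among them was at 1.20 and 1.05 FPKM in IgG RIP and at 4.88 and 3.17 FPKM in KIAA1429 RIP. POSTN was listed at 0 in both IgG RIP libraries and at 0.338 and 1.52 FPKM in KIAA1429 RIP. ACTA2 overlapped, at 20.7 and 18.2 FPKM in IgG RIP and at 18.3 and 37.1 FPKM in KIAA1429 RIP. The part of these markers in the collagen values was not tested. None of 3 endothelial markers and 1 of 3 leukocyte markers, CD68 at 28.7 to 72.2 FPKM, were listed.

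The chains were recovered at widely different levels, with the same chains at the top in both precipitates. ITGB1, the beta chain shared by most integrins, held 121 and 141 FPKM in IgG RIP against 129.97 and 137 FPKM in KIAA1429 RIP. ITGA3, the alpha chain of the laminin receptor alpha3beta1, held 89.2 and 164 FPKM in IgG RIP against 63.9 and 141 FPKM in KIAA1429 RIP. LAMC1, the gamma chain of most laminins, held 68.8 and 80.6 FPKM in IgG RIP against 69.0 and 74.4 FPKM in KIAA1429 RIP. The libraries of the groups overlapped for each of these mRNAs, all of which were abundant in the IgG control.

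Summed over the 8 alpha chains, integrins reached 221 and 271 FPKM in IgG RIP against 183 and 216 FPKM in KIAA1429 RIP. The 6 beta chains reached 154 and 205 FPKM in IgG RIP against 167 and 192 FPKM in KIAA1429 RIP. Laminin beta chains summed to 57.5 and 87.3 FPKM in IgG RIP and to 71.6 and 87.1 FPKM in KIAA1429 RIP. Laminin alpha chains were far below their partners, with 5.48 and 10.01 FPKM in IgG RIP against 3.50 and 5.04 FPKM in KIAA1429 RIP. Collagens were lower than integrins and laminins in every library, with 84.4 and 114 FPKM for the 14 chains in IgG RIP against 85.5 and 86.9 FPKM in KIAA1429 RIP. Among these sums, those of the integrin alpha chains and the laminin alpha chains were lower in both KIAA1429 RIP libraries than in either IgG RIP library, and the others overlapped.

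**Figure D1:**
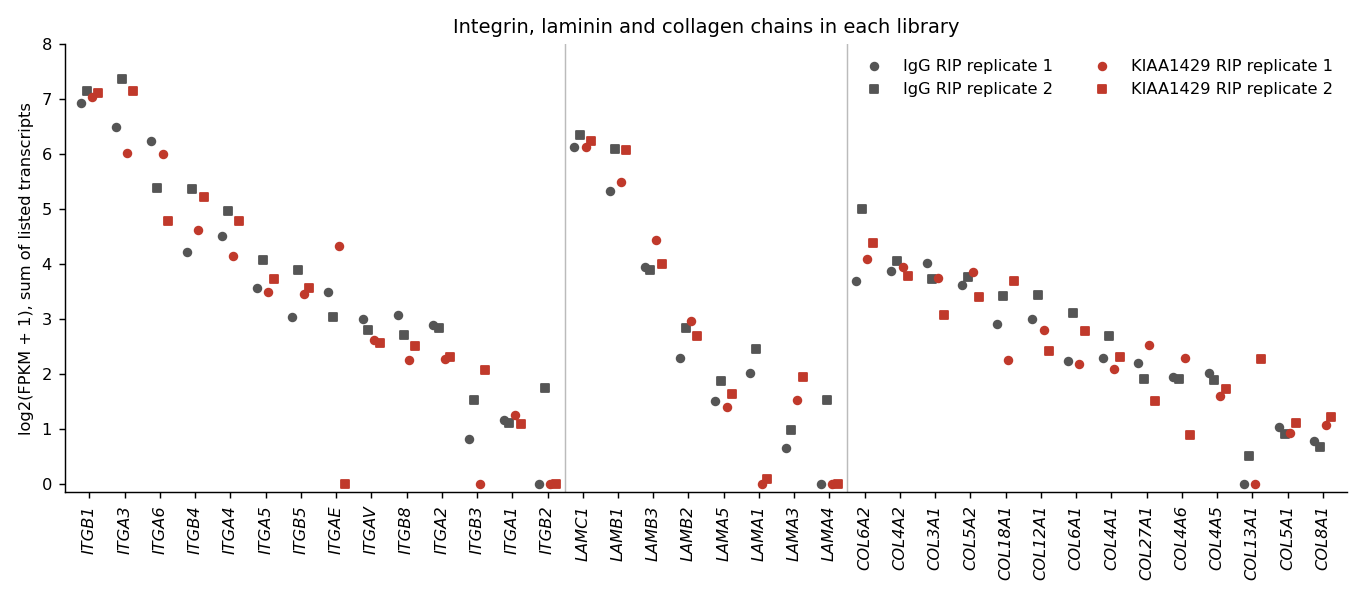
Level of the chains reported by name as log2(FPKM + 1) on the vertical axis, with grey symbols for IgG RIP, red symbols for KIAA1429 RIP, circles for replicate 1 and squares for replicate 2. ITGB1, ITGA3, LAMC1 and LAMB1 stand highest, grey and red symbols overlap for most chains, and LAMA1 is at or near 0 only in red.

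Because the writer complex acts on GGAC, this motif was counted in the mRNA sequence of the most abundant coding transcript of each gene. Sequences were from GENCODE on GRCh37, the build of the files. Of the 34 chains with a mean of at least 1 FPKM, 32 could be matched. Collagen mRNAs were dense in the motif, with a median of 10.1 GGAC per kb (12 chains, 4.69 to 12.6). Laminin mRNAs had a median of 4.77 per kb (8 chains, 3.01 to 7.96) and integrin mRNAs 3.04 per kb (12 chains, 1.99 to 9.003), beside 3.63 per kb over 10398 genes. Chain mRNAs were also long, with a median of 6194 bases against 3088. The median GC content was 57.0% for collagen, 50.7% for laminin and 45.1% for integrin mRNAs, against 48.5% over all genes. The part of base composition in the motif density was not tested. Within 150 bases on either side of the stop codon, GGAC was found in 10 of 12 collagen, 6 of 7 laminin and 5 of 11 integrin mRNAs with a full window, against 70.7% of the 9362 windows of the same length over all genes. A match of letters is not a methylated site, and no methylation was measured in these libraries.

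A GGAC is shown in context for the most abundant chain of each family and for the 6 chains with groups apart by at least 1.5-fold. COL8A1 among these 6 had a mean under 1 FPKM and was not tested, and none of the others passed the test. Of the GGACs with 10 bases on either side in the same exon, the one nearest to the stop codon was taken. ITGB1 holds another, nearer GGAC within 150 bases of its stop codon that did not meet this condition. Each line gives 24 bases of the mRNA, 5′ to 3′, with GGAC in capitals.
ITGB1: ttcatgccagGGACtgacaaaaga
LAMC1: gcaatctggaGGACatcaggaaga
COL6A2: tccacgagaaGGACtatgacagcc
LAMA1: tcctgtcctgGGACcgagtcctga
LAMA3: tcttcactcaGGACacaaaccaga
ITGA2: atttggaacgGGACtttcgcatca
ITGB8: ggacaacagaGGACctaaaggaaa
COL12A1: aggtatccgaGGACccccaggtcc
COL8A1: acaggctgcaGGACtgtatgccgg
On GRCh37 the ITGB1 site lies at chr10:33190304-33190327 on the minus strand, in the 3′ UTR in exon 16 of 16, where the A of GGAC follows the first base of the stop codon by 185 bases. The LAMC1 site at chr1:183111855-183111878 (plus strand) and the COL6A2 site at chr21:47552396-47552419 (plus strand) both lie in the coding part of the last exon, exon 28, 56 bases before the stop codon. The LAMA1 site at chr18:6942078-6942101 (minus strand) is in the last of 63 exons, only 9 bases before its stop codon, the tga that ends the line. The LAMA3 site at chr18:21534695-21534718 (plus strand) is in the 3′ UTR, in exon 75 of 75, 97 bases after the stop codon begins. For ITGA2 (chr5:52379260-52379283, plus strand, exon 27 of 30) the site is 297 bases before the stop codon, and for ITGB8 (chr7:20441478-20441501, plus strand, exon 11 of 15) it is 880 bases before. The ITGB8 site was read in ENST00000537992, which was listed at 0 in replicate 1 of IgG RIP. The other listed transcript of ITGB8 was not searched. The sites of COL12A1 (chr6:75797355-75797378, minus strand, exon 65 of 66) and COL8A1 (chr3:99514908-99514931, plus strand, exon 5 of 5) lie in coding sequence, 82 and 58 bases before the stop codon. Over the 32 chains, the difference between the groups had a Spearman's rho of 0.25 with GGAC per kb, 0.29 with GC content and -0.11 with length, given as a description of chains that share 4 libraries.

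The groups were then compared for each gene total on log2(FPKM + 1), where the 1 shrinks the differences of low genes, with limma over all 11361 gene totals that had a mean of at least 1 FPKM. No integrin, laminin or collagen mRNA passed the test as higher or lower with the KIAA1429 antibody. At an adjusted p under 0.05 with a log2 difference beyond 1, 0 of the 38 members tested were higher and 0 lower, as were 0.0% of all gene totals in each direction. At an unadjusted p under 0.05 from limma, 0 of the 38 were higher, beside 3.17% of all gene totals, and 1 was lower, LAMA1, beside 1.43% (4.59% in either direction). An exact permutation test on 2 and 2 libraries gives at least p = 0.333, so the tests here are limma's. A miss of the threshold does not show that an mRNA was equally recovered. The study, with a test for counts, did report transcripts enriched with the KIAA1429 antibody, so the lack of calls here does not show that nothing was enriched.

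Of the members tested, 24 were lower and 14 higher in KIAA1429 RIP, where 48.6% of all gene totals were lower and 51.4% higher. Their median difference was -0.12 on the log2(FPKM + 1) scale beside 0.02 for all genes. The 34 chains alone had 24 lower and 10 higher, with a median of -0.18, and the 4 other names tested were all higher. The median of all members tested moved with either control library left out, to 0.01 without replicate 2 of IgG RIP and to -0.31 without replicate 1. In these settings the median of all genes was -0.08 and 0.09. Groups did not overlap for 2 of the 34 chains tested in the higher direction, beside 16.6% of all gene totals, and for 7 of 34 in the lower direction, beside 15.2%. With group means at least 1.5-fold apart as well, the counts were 1 higher, beside 10.4%, and 4 lower, beside 8.75%. In the lower direction without this margin, ITGAV and COL4A5 had differences of -0.31 and -0.29.

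**Figure D2:**
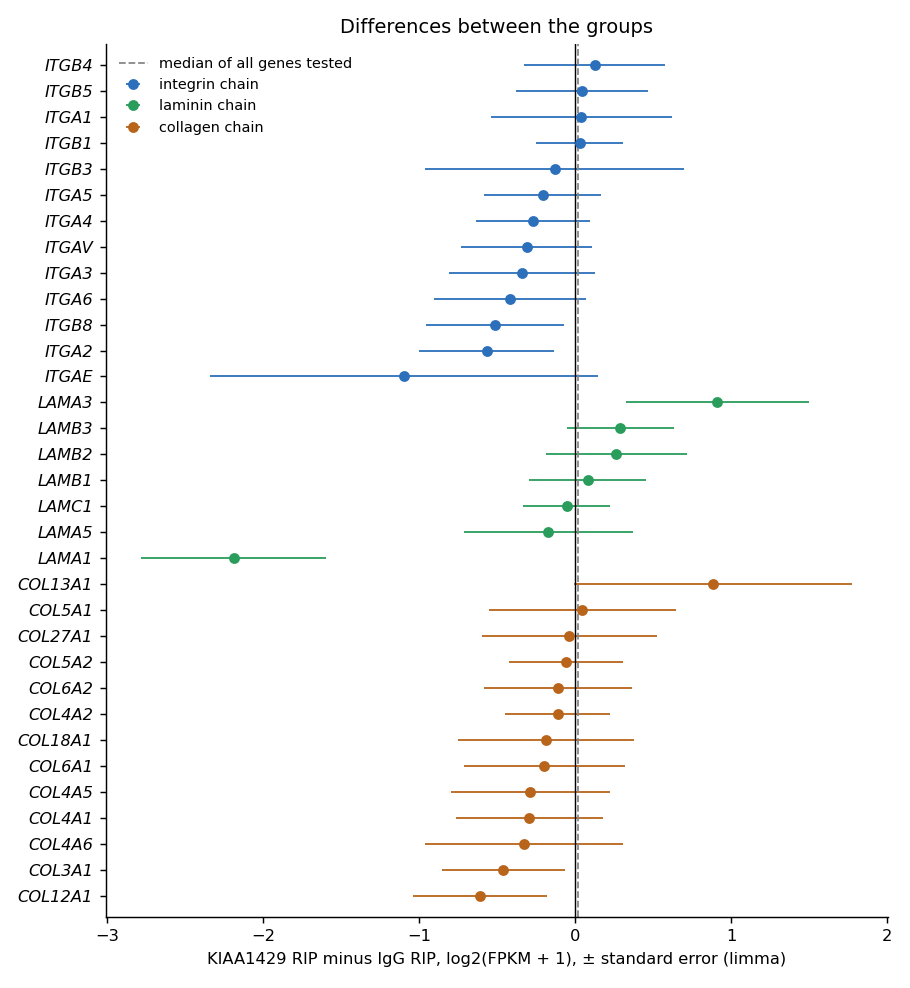
Difference between KIAA1429 RIP and IgG RIP on the log2(FPKM + 1) scale on the horizontal axis, with its standard error from limma, for the tested chains reported by name, colored by family. Most points lie left of 0, and LAMA1 stands apart at -2.19.

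Integrin alpha chains had 7 of 8 differences below 0, with a median of -0.33. ITGA2, the collagen-binding alpha2 chain (chr5:52285156-52390609), held 6.38 and 6.12 FPKM in IgG RIP against 3.81 and 3.98 FPKM in KIAA1429 RIP. Both replicates of each group were close and the groups lay apart, with a log2 difference of -0.57 (standard error 0.43, adjusted p = 0.997 from limma). ITGA2 was thus 1.60-fold higher in the control by the ratio of group means. ITGAV, the alpha chain of vitronectin and fibronectin receptors, was at 7.002 and 5.97 FPKM in IgG RIP and at 5.11 and 4.93 FPKM in KIAA1429 RIP, which did not overlap either. Its main transcript, ENST00000261023, did overlap, at 7.002 and 4.68 FPKM in IgG RIP and at 5.11 and 4.93 FPKM in KIAA1429 RIP. The rest of the total was ENST00000430709, listed in replicate 2 of IgG RIP alone at 1.29 FPKM. ITGA4, the alpha chain of a fibronectin receptor better known from leukocytes, was at 21.7 and 30.2 FPKM in IgG RIP and at 16.8 and 26.4 FPKM in KIAA1429 RIP. ITGA5, the fibronectin receptor chain, ranged from 10.2 to 15.9 FPKM, with overlap of the groups.

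For several abundant chains the 2 libraries of a group were farther apart than the groups. ITGA3 was lower in replicate 1 than in replicate 2 of both groups, and each replicate 1 lay below both replicate 2 values. ITGA6, the alpha chain that pairs with ITGB4 in hemidesmosomes, showed the opposite order, at 74.3 and 40.6 FPKM in IgG RIP and at 62.8 and 26.5 FPKM in KIAA1429 RIP. ITGB4 itself was at 17.6 and 40.0 FPKM in IgG RIP and at 23.4 and 36.1 FPKM in KIAA1429 RIP. Thus both chains of this receptor varied more between replicates than between antibodies, and in opposite directions. Their differences were -0.42 (standard error 0.49) for ITGA6 and 0.13 (standard error 0.45) for ITGB4, with adjusted p = 0.997 from limma for each.

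ITGAE, the alpha chain known from lymphocytes in epithelium, was listed by a single non-coding transcript, at 10.2 and 7.23 FPKM in IgG RIP and at 19.1 FPKM and 0 in KIAA1429 RIP, so its difference of -1.10 (standard error 1.24) came from 1 library. ITGA1, a collagen receptor chain, was near 1 FPKM in all libraries.

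Among integrin beta chains, 3 of 5 differences were above 0, with a median of 0.03. ITGB1 had the difference nearest to 0 of all chains tested, 0.03 (standard error 0.28). ITGB8, the beta chain that binds latent TGF-beta together with ITGAV, was at 7.43 and 5.57 FPKM in IgG RIP and at 3.76 and 4.72 FPKM in KIAA1429 RIP. Its groups lay apart, with a log2 difference of -0.51 (standard error 0.44, adjusted p = 0.997 from limma). The total in replicate 1 of IgG RIP was listed under another transcript than in the other libraries, so the totals may not be on a like scale. The difference was -0.33 without that library and 1.02 with the most abundant transcript alone. ITGB5, a vitronectin receptor chain, ranged from 7.24 to 13.8 FPKM, and ITGB3, the beta chain of platelet and vascular receptors, from 0 to 3.19 FPKM. ITGB2, the leukocyte beta chain, was above 0 in 1 library only, an IgG RIP with 2.33 FPKM, and was not tested.

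Laminin alpha chains held both the lowest and the highest difference among the members tested. LAMA1, the alpha chain of laminin-111 (chr18:6941743-7117813, minus strand), is listed by 1 coding transcript. Its level was 3.04 and 4.50 FPKM in IgG RIP, and in KIAA1429 RIP it was listed at 0 in replicate 1 and at 0.0693 FPKM in replicate 2. Both KIAA1429 RIP values were thus at or near 0 and below both controls. The log2 difference was -2.19 (standard error 0.59, unadjusted p = 0.00796, adjusted p = 0.993 from limma), the rank 19 from the lowest among the 11361 gene totals. With group means of 3.77 FPKM in IgG RIP and 0.0346 FPKM in KIAA1429 RIP, LAMA1 was listed and tested only through the control. Its rank, unadjusted p and lack of overlap are therefore a description and no support for a difference. Its size depended on the pseudocount, with -4.87 at 0.1 and -7.04 at 0.01 in place of 1. Without any 1 library the difference was between -2.41 and -1.97, and the adjusted p was between 0.293 and 0.9998 over all alternatives, so that LAMA1 did not pass the correction in any fit that included it. Since it is low in the control, counting error could be large and cannot be given.

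LAMA3, the alpha chain of laminin-332 in epithelial basement membranes (chr18:21269407-21535030, plus strand), went the other way, from 0.577 and 0.985 FPKM in IgG RIP to 1.87 and 2.86 FPKM in KIAA1429 RIP. The groups did not overlap, and the ratio of group means was 3.03-fold at a log2 difference of 0.91 (standard error 0.58, adjusted p = 0.997 from limma), which was 1.60 with a pseudocount of 0.01. LAMA3 averaged 0.781 FPKM in IgG RIP and reached the minimum for testing through KIAA1429 RIP, so these values are a description too. Its longer transcript ENST00000313654 was at 0.577 and 0.409 FPKM in IgG RIP and at 1.18 and 1.92 FPKM in KIAA1429 RIP. LAMA5, the broadly expressed alpha chain of laminin-511, ranged from 1.64 to 2.64 FPKM, with overlap. LAMA4, the alpha chain of vessel walls, was above 0 in a single IgG RIP library (1.89 FPKM).

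The abundant laminin chains LAMB1 and LAMC1 had differences near 0. LAMB1, the beta chain of laminin-111 and laminin-511, held 39.1 and 67.3 FPKM in IgG RIP against 44.2 and 66.7 FPKM in KIAA1429 RIP, with a difference of 0.08 (standard error 0.38). LAMC1 differed by -0.06 (standard error 0.28). Both partners of LAMA1 thus had overlapping groups. LAMB3, which pairs with LAMA3 in laminin-332, was at 14.4 and 13.9 FPKM in IgG RIP and at 20.6 and 14.9 FPKM in KIAA1429 RIP, apart but by a difference of only 0.29 (standard error 0.34). LAMB2 ranged from 3.91 to 6.79 FPKM.

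Collagen chains had 11 of 13 differences below 0, with a median of -0.19. COL12A1, a collagen that associates with fibrils (chr6:75794042-75915767), was at 7.05 and 9.81 FPKM in IgG RIP and at 5.98 and 4.37 FPKM in KIAA1429 RIP. Its groups lay apart, with a log2 difference of -0.61 (standard error 0.43, adjusted p = 0.997 from limma). The longer transcript ENST00000322507 overlapped between the groups, at 5.54 and 5.02 FPKM against 5.98 and 3.70 FPKM, and differed by -0.13. A short listed transcript, ENST00000493109, was at 1.51 and 4.78 FPKM in IgG RIP and at 0 and 0.668 FPKM in KIAA1429 RIP. The difference of the COL12A1 total thus lay mostly in the short transcript.

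COL8A1, a short-chain network collagen of vessels, was at 0.709 and 0.587 FPKM in IgG RIP and at 1.10 and 1.32 FPKM in KIAA1429 RIP, higher by 1.86-fold without overlap, but its mean was under the minimum for testing. COL13A1, a transmembrane collagen, was at 0 and 0.423 FPKM in IgG RIP and at 0 and 3.84 FPKM in KIAA1429 RIP, so its positive difference of 0.88 (standard error 0.89) rested on 1 library.

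The type IV chains of the basement membrane all had differences below 0, from -0.33 to -0.11. COL4A1 and COL4A2, which start next to each other on opposite strands of chromosome 13 and form 1 trimer, were not recovered at the same level. COL4A2 held 13.7 and 15.7 FPKM in IgG RIP against 14.4 and 12.7 FPKM in KIAA1429 RIP, while COL4A1 ranged from 3.26 to 5.47 FPKM over the libraries. COL4A5 was at 3.04 and 2.71 FPKM in IgG RIP and at 2.04 and 2.30 FPKM in KIAA1429 RIP, without overlap. The total of its neighbor COL4A6 overlapped, at 2.83 and 2.75 FPKM in IgG RIP and at 3.90 and 0.858 FPKM in KIAA1429 RIP. Without a non-coding transcript listed in replicate 1 of KIAA1429 RIP alone, its coding transcript ENST00000394872 was at 1.48 FPKM in that library.

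COL3A1, a fibrillar collagen typical of mesenchymal cells, was at 15.1 and 12.2 FPKM in IgG RIP and at 12.3 and 7.46 FPKM in KIAA1429 RIP, and COL5A2, which nucleates fibrils, ranged from 9.59 to 13.5 FPKM. COL5A1 and COL27A1, the other fibrillar chains, did not exceed 4.80 FPKM. COL6A2, a chain of beaded microfibrils and the most abundant collagen here, was at 11.9 and 31.0 FPKM in IgG RIP and at 16.0 and 19.8 FPKM in KIAA1429 RIP. Its partner COL6A1 ranged from 3.51 to 7.62 FPKM, and COL18A1, the source of endostatin, from 3.80 to 11.9 FPKM, each with overlap of the groups.

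Single transcripts gave no calls either. Among 23375 transcripts tested in the same way, 78 belonged to the members, and 0 of these passed the adjusted threshold, as did 0.0% of all transcripts in each direction. At an unadjusted p under 0.05 from limma, 0 of the 78 were higher, beside 3.03% of all transcripts, and 4 were lower, beside 2.33%. These were LAMA1 and 1 transcript each of ITGB1, ITGA6 and LAMB3, named for this reason. All 4 averaged between 3.13 and 5.78 FPKM in IgG RIP and at most 0.198 FPKM in KIAA1429 RIP. Each was thus tested only through its level in the control, so their count is a description and no support for a difference. Groups did not overlap for 16 of 78 in the lower direction, beside 14.5% of all transcripts, and for 7 of 78 in the higher direction, beside 15.2%. Of all 113 listed transcripts of the members, 59 were above 0 in all libraries and 27 in just 1 library.

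ITGB1 was listed by 11 transcripts whose sum hardly differed. The main one, ENST00000302278 (chr10:33189320-33247137), was at 80.3 and 50.9 FPKM in IgG RIP and at 96.3 and 96.5 FPKM in KIAA1429 RIP. It made up 66.1% and 36.1% of the gene total in IgG RIP against 74.1% and 70.4% in KIAA1429 RIP. ENST00000396033 (chr10:33189247-33246822), which covers nearly the same span, was at 43.3 FPKM in replicate 2 of IgG RIP and between 1.87 and 5.34 FPKM in the other libraries. The lowest value of the main transcript and the highest of the other thus fell in the same control library. The log2 difference of the main transcript was 0.58 (standard error 0.34, adjusted p = 0.879 from limma). A shorter transcript, ENST00000417122 (chr10:33218857-33247155), was at 4.49 and 7.08 FPKM in IgG RIP and at 0.396 FPKM and 0 in KIAA1429 RIP, a log2 difference of -2.49 (standard error 0.66, adjusted p = 0.806 from limma).

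ITGA6 was carried mostly by ENST00000264107, at 63.8 and 31.9 FPKM in IgG RIP and at 62.6 and 21.3 FPKM in KIAA1429 RIP. The shortened ENST00000412899 (chr2:173292082-173339705) was at 3.49 and 2.76 FPKM in IgG RIP and listed at 0 in both KIAA1429 RIP libraries. LAMB3 had a like case in ENST00000455193 (chr1:209789926-209792143), a fragment at the 3′ end of the gene, at 3.96 and 4.48 FPKM in IgG RIP and at 0 and 0.0166 FPKM in KIAA1429 RIP. In the opposite direction, the LAMB3 transcript ENST00000356082 was at 1.65 and 0.134 FPKM in IgG RIP and at 1.97 and 8.40 FPKM in KIAA1429 RIP. The main LAMB3 transcript, ENST00000391911, overlapped between the groups, at 8.81 and 9.30 FPKM against 12.8 and 6.35 FPKM.

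For ITGB8 the listed transcript differed between libraries. In replicate 1 of IgG RIP the whole total, 7.43 FPKM, was listed under ENST00000222573, and in the other libraries the whole total was listed under ENST00000537992. How reads were assigned to these transcripts was not tested. The sum was used as the level of ITGB8, but whether FPKM of both transcripts is on a like scale was not tested.

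The other 5 names matched the pattern without being chains. ITGB1BP1 encodes a protein that binds the tail of the beta1 chain, at 19.1 and 12.1 FPKM in IgG RIP and at 25.9 and 14.3 FPKM in KIAA1429 RIP. ITGB3BP, a centromere protein despite its name, was at 8.15 FPKM and 0 in IgG RIP and at 9.21 and 0.265 FPKM in KIAA1429 RIP. COL4A3BP, a ceramide transfer protein, ranged from 8.83 to 18.9 FPKM, and ITGBL1, a secreted protein with integrin-like repeats, from 0.280 to 2.18 FPKM. The pseudogene COL6A4P2 was above 0 in 1 library. None of the 5 lay apart between the groups.

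The pathway around these chains gave no calls either. Of 19 matrix proteins on the list, 15 were tested, and 0 passed the adjusted threshold in either direction, with a median difference of -0.14. FN1, encoding fibronectin, the ligand of ITGA5, was lowest, at 28.9 and 53.9 FPKM in IgG RIP and at 26.5 and 31.2 FPKM in KIAA1429 RIP. AGRN, the basement membrane proteoglycan agrin, had the most positive difference, 0.35 (standard error 0.43).

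Of 25 collagen synthesis genes, 22 were tested and 0 passed, with a median of 0.10. MIA3, which helps export bulky collagens from the endoplasmic reticulum, was lowest at -0.68 (standard error 0.54), and LOXL1, a crosslinking oxidase, highest at 1.26 (standard error 0.94), the latter from 4.77 FPKM in 1 KIAA1429 RIP library and 0 in the others. Of 11 proteases and inhibitors, 6 were tested and 0 passed, with differences from -0.45 for MMP24 to 0.18 for TIMP1. Of 11 other matrix receptors, 10 were tested and 0 passed, from -0.38 for DAG1, the dystroglycan precursor that binds laminins, to 0.27 for BCAM.

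Of 31 genes of the integrin adhesion complex, 27 were tested and 0 passed, with a median of -0.06. TES, a LIM protein of focal adhesions, was lowest, at 5.67 and 6.28 FPKM in IgG RIP and at 4.66 and 0.691 FPKM in KIAA1429 RIP (difference -1.17, standard error 0.66). VCL, encoding vinculin, was highest, at 5.86 and 29.3 FPKM in IgG RIP and at 24.7 and 22.7 FPKM in KIAA1429 RIP (difference 0.78, standard error 0.66). In VCL the difference came from 1 control library. In TES both KIAA1429 RIP libraries were below the controls, but replicate 1 only slightly, so most of its difference also lay in 1 library. Adjusted p from limma over all gene totals was at least 0.997 for every gene tested on these lists.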

How the data were processed

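RIP-seq libraries from HCCLM3, 2 for KIAA1429 and 2 for normal IgG, were grouped by their labels. According to the methods of the study, mRNA was purified by its poly(A) tail, fragmented and primed at random, and HISAT2 was used for alignment to GRCh37/hg19. The labels instead describe Trizol extraction and TruSeq libraries from total RNA, and which applied is not settled here. The submitters' processing notes also name Bowtie2 2.1.0. The files deposited by the authors give FPKM, 1 value per transcript and library, with no counts. The tool that estimated FPKM and the annotation release are not given in the sources used here. Each listed transcript had at least 0.5001 FPKM in the higher group mean, so lower ones are outside this work.

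FPKM values were summed per gene name. Gene names averaging 1 FPKM or more (38 of the 42 members, 11361 in all) entered a fit of log2(FPKM + 1) by limma 3.58.1, run in R 4.3.3 (trend, two-sided, Benjamini-Hochberg over all of them). The call was an adjusted p under 0.05 with a log2 difference beyond 1, after the thresholds of the study, whose test is for counts. Tested on simulated data with the spread of these libraries, the fit missed changes well above the call's size and found most of the very large ones. A lack of calls therefore does not exclude changes well beyond the call's size. A member low in both groups could not pass the filter, so the members that passed are not all members.

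Members and lists were chosen with earlier results of these data known. Genes named are the 10 most abundant chains, the 5 with the largest positive and the 5 with the largest negative difference, chains apart by at least 1.5-fold without overlap, and the extremes of each pathway list. The 4 genes drawn by transcript were picked after their values were seen. Other members are given by their values, except that 1 item is not reported here by name or value and enters only the counts and medians. Motifs were counted in GENCODE v44 transcripts lifted to GRCh37 with Python 3.11.15, for the most abundant listed protein_coding transcript. Alternatives were other pseudocounts, filters, scalings, sums and fits, and each library left out in turn.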

Additional observations from a re-analysis of the deposited data

How the results depend on the processing

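With 2 libraries a group and unknown depth, changes of low mRNAs such as LAMA1 or LAMA3 are poorly bounded. No member was called under any alternative (pseudocounts of 0.1 and 0.01, no filter, a mean of at least 5 FPKM, median, sum and quantile scaling, limma without trend, protein_coding transcripts only, the most abundant transcript, the replicate block, each library left out). Count tests were not run, since the files hold FPKM. With the replicate block, 12 gene totals were called higher and 1 lower, none of them members, where 0 and 0 were called without it. At an unadjusted p under 0.05 from limma there were 1026 gene totals with the block and 522 without. The transcripts gave 0 calls with the block too. Same-numbered libraries had a correlation of deviations of 0.187 over gene totals and 0.585 over the 34 chains tested, and replicate 2 lay on the same side of replicate 1 in both groups for 25 of the 34 chains, beside 58.0% of all gene totals. The labels do not say that a number marks a shared day or batch.

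Scaling to the same FPKM sum moved the median of all genes from 0.02 to -0.11 and that of the members tested to -0.25, and gave -0.12 for ITGB1, -0.017 for ITGB4 and -0.066 for LAMB1, each slightly above 0 as deposited. Quantile normalization gave -0.11 for ITGB1. With the most abundant transcript alone, the differences were 0.061 for COL6A2, -0.19 for ITGB4 and 1.02 for ITGB8, whose 2 transcripts alternate between libraries. The median of the members tested ranged from -0.31 to 0.014 with each library left out in turn. Differences ranged from -0.77 to 0.55 for COL6A2, from -0.91 to 0.22 for ITGA3, from -0.58 to 0.040 for ITGA4, from -1.03 to 0.19 for ITGA6 and from -3.26 to 1.07 for ITGAE. They ranged from -0.079 to 0.14 for ITGB1, from -0.44 to 0.70 for ITGB4, from -0.30 to 0.46 for LAMB1, from -0.0049 to 0.53 for LAMB2 and from -0.17 to 0.057 for LAMC1. Pseudocounts of 0.1 and 0.01 gave -2.65 and -4.30 for ITGAE and 1.46 and 1.58 for COL13A1, each with a library at 0. None of these differences was called in any setting, and the causes of the moves were not tested.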
